A study of Arabidopsis thaliana with 24 samples.

Results

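Leaf starch is made in chloroplasts by day and consumed at night, and the 10 genes described here encode the enzymes and accessory proteins that act on the granule itself. They were taken by locus identifier from the deposited count table, which lists 33610 gene identifiers, and all 10 were found and tested. They are GWD1 and PWD (dikinases), SEX4, LSF1 and LSF2 (phosphatase family), BAM3 and BAM1 (beta-amylases), AMY3 (an alpha-amylase), and ISA3 and LDA (debranching enzymes).

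The granule surface is semi-crystalline, and dikinases phosphorylate its glucan chains so that they become accessible to hydrolysis. Beta-amylases then release maltose from the exposed chain ends, debranching enzymes remove the branch points at which beta-amylases stop, and phosphatases take the phosphate off again so that chains can be fully degraded. In Arabidopsis leaves the pathway runs through the night at a rate set so that the reserve lasts until dawn, and loss of its early enzymes leaves starch in the leaf at the end of the night.

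RNA was sequenced from Arabidopsis thaliana leaves of 2 natural ecotypes, Castelnuovo-12 from Italy (IT, sub-line 24) and Rodasen-47 from Sweden (SW, sub-line 29), both grown from seed; the labels give no introduced allele. Low-light plants received 100 µmol photons per square metre per second and high-light plants 1000, always in 9 h photoperiods. Warm leaves were at 25 °C by day and 20 °C at night (LLW and HLW), cool low-light leaves at 16 and 12.5 °C (LLC), and cool high-light leaves at 14 and 12.5 °C (HLC). The youngest fully developed leaf was sampled as 2 discs of 0.73 square cm at the close of the 15 h dark period, so every value below is an end-of-night level. Each of the 8 groups, written IT_LLW, SW_HLC and so on, held 3 libraries that the labels call biological replicates; whether these were separate plants or growth runs is not stated, so the p-values reflect only how far these samples spread.

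Total counts ran from 10967425 to 17467653 per library, of which plastid transcripts took 54.84% to 67.99%. The leaf genes RBCS1A and CAB1 were at 1993 to 6082 and 1308 to 9983 CPM (counts scaled to library size by TMM), while the root genes SMB, MYB36 and EXP7 were at the table's lowest value of 1 in all 24 libraries. Libraries did not group by their ecotype labels. Of 94 transcripts that were at or above 1 CPM in every library of some groups and at or below 3 counts in every library of the rest, 51 were present only in SW_LLW, IT_LLC, SW_LLC and IT_HLC and 29 only in IT_LLW, IT_HLW, SW_HLW and SW_HLC. IT_HLC replicate 3, which was set aside in defining these sets, held the first set at 48.5% and the second at 29.8% of the level in the libraries that carried them, whereas libraries without a set showed 0.918% to 1.499%. IT and SW are therefore used below as labels, HLC against LLW is given as the mean over labels, which is balanced over the 2 sets, and values restricted to groups of the same set are added where they differ. The library codes in the labels form a series with letters (LLW and HLC) and a series with numbers (LLC and HLW), so that a step of only light or only temperature cannot be told apart from a difference between code series.

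Promoter sequences are shown for 4 members. They include the gene with the widest range of levels (ISA3) and the gene most abundant per exon length (BAM3). They also include the genes in whose window the evening element or CCGAC was found (ISA3, PWD and AMY3). Each is the 250 bases upstream of the annotated gene start in RefSeq's TAIR10.1, 5′ to 3′ on the gene's strand; the submitters' notes name TAIR10, the count table holds no coordinates, and both the sequences and the positions here are those of TAIR10.1. Capitals mark matches to the evening element AAAATATCT (seen here as its reverse complement) or to the core CCGAC of the cold- and drought-responsive element.
ISA3, chr4:5783659-5783908, plus strand: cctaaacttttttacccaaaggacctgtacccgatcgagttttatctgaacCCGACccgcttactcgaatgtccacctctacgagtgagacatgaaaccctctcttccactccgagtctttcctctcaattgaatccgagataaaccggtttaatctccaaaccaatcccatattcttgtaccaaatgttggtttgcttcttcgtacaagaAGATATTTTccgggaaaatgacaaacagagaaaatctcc
PWD, chr5:9261229-9261478, plus strand: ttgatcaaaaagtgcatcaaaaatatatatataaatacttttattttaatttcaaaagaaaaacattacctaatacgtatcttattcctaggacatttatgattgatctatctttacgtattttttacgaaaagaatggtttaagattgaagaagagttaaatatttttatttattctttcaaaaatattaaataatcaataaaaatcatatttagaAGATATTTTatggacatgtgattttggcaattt
AMY3, chr1:26293174-26293423, minus strand: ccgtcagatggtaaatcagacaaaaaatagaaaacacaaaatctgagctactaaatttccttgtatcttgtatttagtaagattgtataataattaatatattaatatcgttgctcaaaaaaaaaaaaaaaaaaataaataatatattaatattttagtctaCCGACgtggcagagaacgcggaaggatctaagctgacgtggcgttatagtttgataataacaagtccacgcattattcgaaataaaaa
BAM3, chr4:9607403-9607652, minus strand: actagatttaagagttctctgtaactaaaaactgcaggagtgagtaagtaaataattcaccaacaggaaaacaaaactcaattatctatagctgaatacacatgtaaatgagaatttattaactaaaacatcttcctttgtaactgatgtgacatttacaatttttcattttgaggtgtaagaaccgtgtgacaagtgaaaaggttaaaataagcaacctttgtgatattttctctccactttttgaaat

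Motifs were searched on both strands in the windows of all 10 members. The evening element, which clock proteins of the CCA1 family bind, lay at -39 to -31 from the start of ISA3 and at -33 to -25 from that of PWD, and 2.36% of 27443 windows in the genome hold it. CCGAC, bound by CBF factors, lay at -199 to -195 in ISA3 and -88 to -84 in AMY3, against 11.97% of all windows. The G-box CACGTG lay at -52 to -47 in LSF1, against 6.49% of all windows. AAAAATCT, a CCA1 binding site, is held by 6.69% of windows and by none of these 10. BAM3, SEX4, GWD1, LSF2, BAM1 and LDA held none of the searched letters in this window. These matches are descriptions of sequence, and binding was not measured.

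All 10 transcripts were higher in HLC than in LLW (mean of labels, edgeR quasi-likelihood test, Benjamini-Hochberg adjusted p below 0.05), with a median log2 difference of 2.27 against 0.01 over the 17709 genes tested. Of all genes tested, 28.5% were called higher and 27.3% lower in this comparison. In 9 of the 10 the difference was at least 1 on the log2 scale, against 11.5% of all genes, and BAM1 was the exception at 0.63. The highest group mean of every member was in an HLC group. In 7 members (PWD, SEX4, LSF1, BAM3, AMY3, ISA3 and LDA) each of the 6 HLC libraries lay above all 18 others, a pattern shown by 3.28% of all genes, and in 8, all but LSF2 and BAM1, each HLC library lay above each LLW library, against 12.6%. Together the 10 transcripts made up 0.341% to 0.561% of nuclear counts in HLC libraries and 0.0595% to 0.118% in the others. In bulk leaf RNA, fewer cells of a type and less RNA per cell cannot be told apart.

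**Figure D1:**
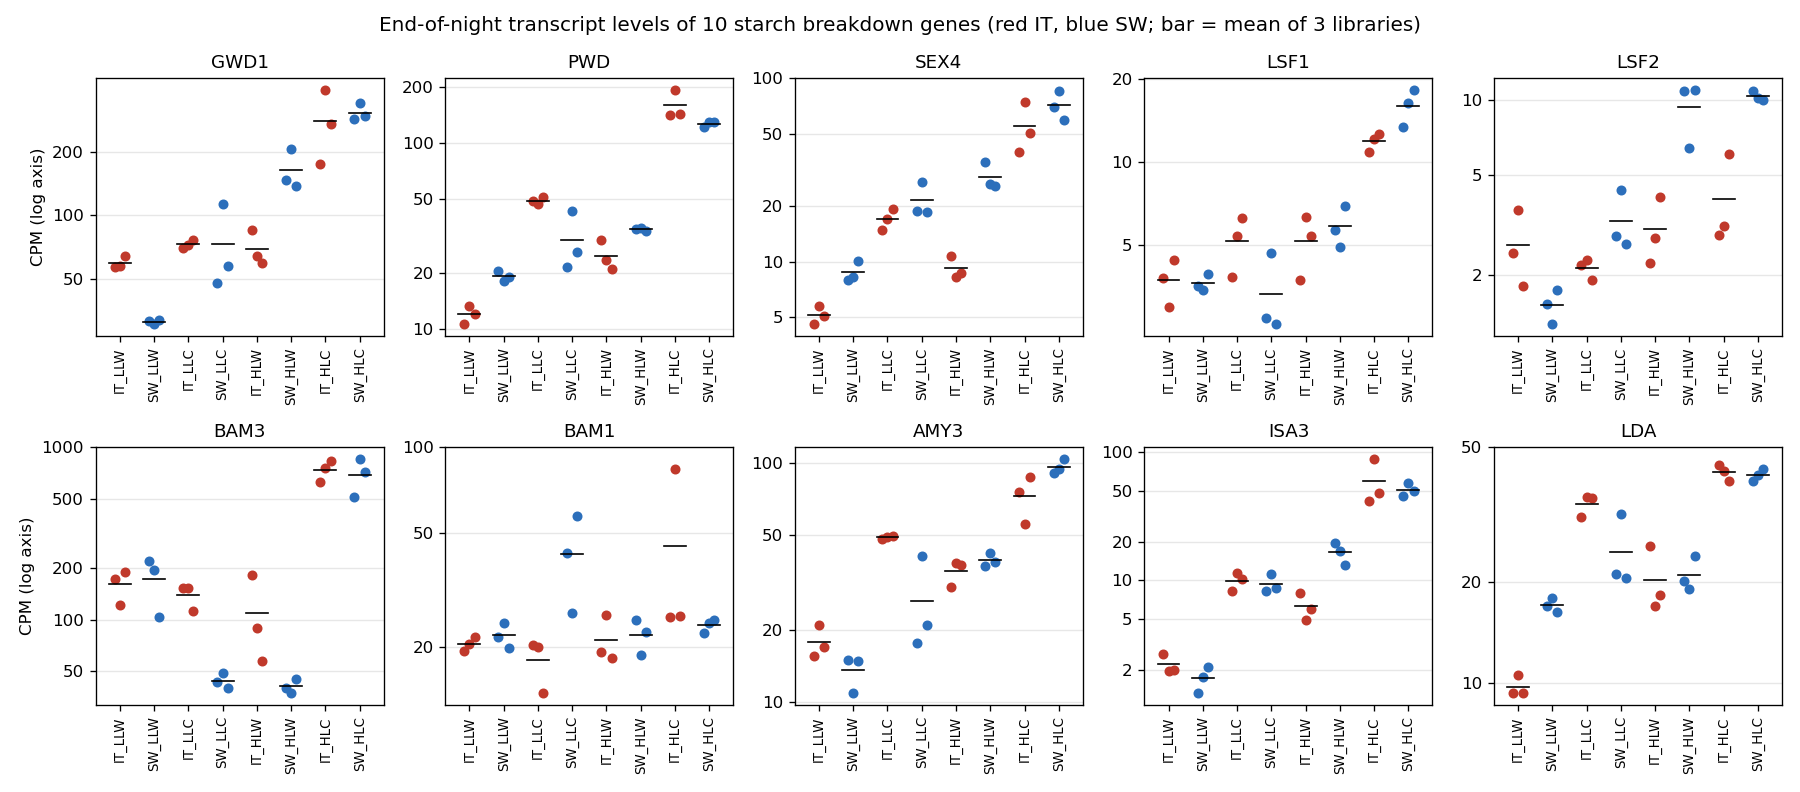
Transcript levels of the 10 genes in CPM (log axes with separate ranges) in the 8 groups; each point is 1 library, red for IT and blue for SW, and each bar is the mean of 3 libraries. ISA3, PWD, SEX4, LSF1, BAM3, AMY3 and LDA show all 6 HLC points above the rest, BAM3 is lowest in SW_LLC and SW_HLW, and BAM1 has its highest point in IT_HLC replicate 2 at 83.9 CPM.

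GWD1 (AT1G10760, chr1:3580830-3590928, minus strand), the glucan, water dikinase that starts granule breakdown by phosphorylating amylopectin, was at 56.8, 57.5 and 63.8 CPM in IT_LLW and at 31.4, 30.5 and 31.9 CPM in SW_LLW. In HLC it reached 175, 394 and 273 CPM in IT and 287, 342 and 295 CPM in SW. The HLC and LLW ranges did not overlap, but the lowest HLC library, IT_HLC replicate 1, lay below SW_HLW replicate 2 at 205 CPM. GWD1 rose by 2.77 ± 0.20 (log2, SE; adjusted p = 9.25e-10, higher in 6 of 6 HLC libraries). Its order of group means ran from SW_LLW through IT_LLW, IT_HLW, SW_LLC, IT_LLC, SW_HLW and IT_HLC to SW_HLC. Libraries of neighbouring groups were apart only between SW_LLW and IT_LLW and between IT_LLC and SW_HLW.

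PWD (AT5G26570, chr5:9261479-9267732, plus strand), the phosphoglucan, water dikinase that acts on chains GWD1 has already phosphorylated, was at 10.7, 13.3 and 11.999 CPM in IT_LLW and 20.5, 18.2 and 19.0 CPM in SW_LLW. It was at 141, 191 and 143 CPM in IT_HLC and 121, 128 and 129 CPM in SW_HLC. The libraries fell into 3 ranges that did not overlap: LLW lay below every LLC and HLW library, as in 1.49% of all genes, by a narrow gap (20.5 against 20.97 CPM), and those lay well below every HLC library. The rise was 3.22 ± 0.14 (adjusted p = 1.38e-12). The intermediate groups ran from 24.8 ± 4.74 CPM (SD, n = 3) in IT_HLW through 30.1 ± 11.2 in SW_LLC and 34.3 ± 0.689 in SW_HLW to 48.9 ± 2.19 in IT_LLC, where SW_LLC and SW_HLW overlapped their neighbours below and IT_LLC stood apart from SW_HLW.

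SEX4 (AT3G52180, chr3:19349600-19353728, minus strand), the phosphoglucan phosphatase whose loss causes the starch excess phenotype, was at 4.57, 5.71 and 5.06 CPM in IT_LLW and 7.99, 8.27 and 10.02 CPM in SW_LLW. In HLC it was at 39.8, 74.2 and 50.5 CPM in IT and 69.5, 84.9 and 59.3 CPM in SW. All HLC libraries were above the highest of the others, SW_HLW replicate 1 at 34.8 CPM. The rise of 3.22 ± 0.16 (adjusted p = 5.06e-12) had the same size as that of PWD to 2 decimals. SEX4 also differed by label: it was higher under SW in the mean of the regimes by 0.79 ± 0.11 (adjusted p = 3.6e-05), with SW_HLW at 29.1 ± 4.96 CPM and IT_HLW at 9.20 ± 1.36 CPM, ranges that did not overlap. Of all genes, 12.2% were called higher and 12% lower under SW.

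LSF1 (AT3G01510, chr3:198322-201810, minus strand), a relative of SEX4 without phosphatase activity that holds beta-amylases at the granule, was at 3.78, 2.98 and 4.41 CPM in IT_LLW and 3.55, 3.44 and 3.90 CPM in SW_LLW. It was at 10.9, 12.2 and 12.7 CPM in IT_HLC and 13.4, 16.5 and 18.3 CPM in SW_HLC. The 6 groups outside HLC all overlapped their neighbours, between 3.32 ± 1.18 CPM in SW_LLC and 5.83 ± 1.01 CPM in SW_HLW, and every HLC library was above them. LSF1 rose by 1.91 ± 0.16 (adjusted p = 6.17e-09). In the annotation its exons share 343 bases, 13.8% of their length, with the neighbouring gene CA1 on the same strand, a carbonic anhydrase whose CPM, which is not scaled by length, was on average 44.5 to 237 times that of LSF1 in the same libraries, depending on the group. CA1 was at 855 ± 155 CPM in IT_LLW and 519 ± 398 CPM in IT_HLC, and at 571 ± 75.6 and 909 ± 227 CPM in the SW groups; the sources used here do not say how reads in the shared bases were assigned, and their part in the LSF1 values was not tested.

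LSF2 (AT3G10940, chr3:3422034-3423455, minus strand), the phosphatase that removes the phosphate PWD adds, was low throughout, with a mean over groups of 4.54 CPM, and its HLC libraries overlapped LLW in IT. In IT_LLW it was at 2.45, 3.64 and 1.81 CPM and in IT_HLC at 2.87, 3.14 and 6.06 CPM. These ranges overlapped, with only IT_HLC replicate 3 above the LLW range. In SW it was at 1.52, 1.27 and 1.74 CPM in LLW and at 10.9, 10.2 and 9.98 CPM in HLC, far apart. SW_HLW, at 10.8, 6.43 and 10.9 CPM, overlapped SW_HLC. The mean over labels rose by 1.68 ± 0.22 (adjusted p = 1.64e-06), the IT difference was 0.60 ± 0.30 (adjusted p = 0.103) and without IT_HLC replicate 3 it was 0.21 (adjusted p = 0.577). It was called without IT_LLW replicate 2 (0.89, adjusted p = 0.0348) or IT_HLC replicate 1 (0.79, adjusted p = 0.0452). Under SW it was higher in the mean of regimes by 0.71 ± 0.15 (adjusted p = 0.00236).

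BAM3 (AT4G17090, chr4:9604962-9607402, minus strand), the main beta-amylase of mesophyll chloroplasts at night, had the highest level of the 10 per exon length. In LLW it was at 173, 121 and 189 CPM in IT and 218, 195 and 103 CPM in SW. In LLC it was at 153, 153 and 112 CPM in IT and 43.5, 48.8 and 40.1 CPM in SW. The SW_LLC libraries thus lay below the LLW range, and 2 of the 3 IT_LLC libraries lay within that of IT_LLW. In HLW it was at 180, 89.2 and 57.3 CPM in IT and 40.1, 37.5 and 45.3 CPM in SW. In HLC it was at 630.0, 758 and 831 CPM in IT and 514, 855 and 718 CPM in SW. Every HLC library was above the highest of all others at 218 CPM, and the 2 lowest groups, SW_HLW at 40.9 ± 3.98 and SW_LLC at 44.1 ± 4.36 CPM, lay apart from the rest.

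Between HLC and LLW, BAM3 rose by 2.11 ± 0.23 (adjusted p = 2.38e-07). Under SW it was lower in the mean of regimes by a log2 difference of -0.77 ± 0.16 (adjusted p = 0.00185), while the HLC means of the 2 labels, 740 ± 102 and 696 ± 171 CPM, came from ranges that overlapped. In the annotation a long noncoding RNA, AT4G06665, runs on the opposite strand over 518 exon bases (24.6%) of BAM3, and AT4G17085 over 13. AT4G17085 had 4 to 18 counts in each library, and the deposited count table has no entry for AT4G06665. The sources used here do not say whether counting used strand, and without it reads from a gene and its antisense partner cannot be told apart.

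BAM1 (AT3G23920, chr3:8641181-8644449, plus strand), a redox-regulated plastid beta-amylase known for its role in guard cells and under osmotic stress, varied least, with 2.50-fold between its highest and lowest group means. It was at 19.3, 20.5 and 21.7 CPM in IT_LLW, 21.7, 24.3 and 19.9 CPM in SW_LLW and 22.3, 24.4 and 24.9 CPM in SW_HLC. In IT_HLC it was at 25.4, 83.9 and 25.7 CPM, and only replicate 2 lay above the highest library of the other groups. That library was in SW_LLC, the other group with a high mean, at 42.9, 26.4 and 57.5 CPM. The call of a rise (0.63 ± 0.24, adjusted p = 0.0338) rested on IT_HLC replicate 2: without it the difference was 0.22 (adjusted p = 0.235), and within IT 0.32 (adjusted p = 0.263) in place of 1.14 ± 0.35 (adjusted p = 0.00901). It was also lost, at adjusted p from 0.0532 to 0.0675, without IT_LLW replicate 1 or 2, SW_LLW replicate 1 or 3, or SW_HLC replicate 2 or 3, and with the letter-coded libraries alone (adjusted p = 0.0668). IT_HLC replicate 2 had the widest spread around its group mean of any library over the genes tested (residual SD 0.564 on the log2 scale, against 0.265 to 0.465 in the others). The guard cell genes MYB60, SLAC1, KAT1 and SDD1 summed to 5.45 to 7.71 CPM in IT_HLC and 8.02 to 8.81 CPM in IT_LLW. In SW the sums went the other way, with 8.89 to 10.99 CPM in HLC and 7.20 to 8.49 CPM in LLW. The part of these genes in the BAM1 values was not tested.

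AMY3 (AT1G69830, chr1:26288228-26293173, minus strand), the plastid alpha-amylase that cuts inside glucan chains, was at 15.6, 21.0 and 17.1 CPM in IT_LLW and 15.1, 10.9 and 14.9 CPM in SW_LLW. It was at 75.5, 55.7 and 87.4 CPM in IT_HLC and 90.6, 94.1 and 104 CPM in SW_HLC. The HLC libraries were all above the next highest, IT_LLC, whose 3 libraries at 48.0, 49.0 and 49.7 CPM were themselves close together. AMY3 rose by 2.42 ± 0.17 (adjusted p = 4.43e-10). In the order of means SW_LLC, IT_HLW and SW_HLW each overlapped the group below, and SW_HLW lay apart from IT_LLC above it.

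ISA3 (AT4G09020, chr4:5783909-5789100, plus strand), the isoamylase-type debranching enzyme of breakdown, changed most. It was at 2.65, 1.99 and 2.02 CPM in IT_LLW and 1.33, 1.78 and 2.1002 CPM in SW_LLW. In LLC it was at 8.26, 11.4 and 10.3 CPM in IT and 8.31, 11.2 and 8.73 CPM in SW. These middle groups were several times higher, and with PWD it was the only member whose LLW libraries all lay below every LLC and HLW library. In HLW it was at 7.98, 4.94 and 5.94 CPM in IT and 19.6, 17.0 and 13.1 CPM in SW. In HLC it was at 41.4, 87.9 and 47.9 CPM in IT and 45.1, 57.1 and 49.5 CPM in SW. The HLC libraries all lay above the highest of the others at 19.6 CPM, and the highest group mean was 34.0-fold the lowest. The rise from LLW to HLC was 4.79 ± 0.20 (adjusted p = 6.63e-13).

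LDA (AT5G04360, chr5:1221448-1228841, plus strand), the limit dextrinase that removes short branches, was at 9.34, 10.6 and 9.32 CPM in IT_LLW and 16.9, 17.8 and 16.2 CPM in SW_LLW. It was at 44.3, 42.5 and 39.7 CPM in IT_HLC and 39.6, 41.3 and 43.1 CPM in SW_HLC. The label groups were apart in LLW and overlapped in HLC, where all 6 libraries exceeded the next highest, IT_LLC replicate 2 at 35.7 CPM. LDA rose by 1.70 ± 0.11 (adjusted p = 2.28e-10).

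Levels can be compared between genes only per length of exon. On the scale of mean CPM per kilobase, BAM3 was highest in HLC with 352 in IT and 331 in SW, followed by GWD1 with 55.6 and 61.1. ISA3 was at 21.5 and 18.4 in HLC and lowest of the members in LLW with 0.808 and 0.633. LSF1 was low throughout, at 1.498 and 1.46 in LLW and 4.79 and 6.46 in HLC. LDA, at 2.82 and 4.91 in LLW, was above ISA3 there, and at 12.2 and 11.96 in HLC it was below ISA3.

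Within each label, 9 of 10 members rose from LLW to HLC. Of all genes 28.6% were called higher within IT and 24.8% within SW. The member not called was LSF2 in IT and BAM1 in SW (0.12 ± 0.34, adjusted p = 0.798). The difference between labels was itself called for 4 members, against 37.1% of all genes, a share near that background. GWD1 rose by more under SW (3.30 ± 0.30) than under IT (2.24 ± 0.28), a difference of 1.06 ± 0.39 (adjusted p = 0.0363). For LSF2 the value under SW (2.77 ± 0.31) exceeded that under IT by 2.17 ± 0.43 (adjusted p = 0.000603). PWD rose by less under SW (2.71 ± 0.20 against 3.72 ± 0.21; difference -1.01 ± 0.27, adjusted p = 0.00604), and so did LDA (1.28 ± 0.16 against 2.11 ± 0.16; difference -0.83 ± 0.22, adjusted p = 0.00635). ISA3 gave 4.72 ± 0.29 and 4.85 ± 0.29, with a difference of 0.13 ± 0.39 (adjusted p = 0.828).

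The label difference coincides with the transcript sets, since within a label LLW and HLC carry different sets, and label and set cannot be told apart. The GWD1 call was lost without any of the IT_LLW or SW_LLW libraries, IT_HLC replicate 1 or 3, or SW_HLC replicate 2 (adjusted p up to 0.0877), and with no filter on low counts (adjusted p = 0.0557). Without IT_HLC replicate 3, BAM1 (-1.29, adjusted p = 0.0327) and AMY3 (0.94, adjusted p = 0.0342) were called in addition; BAM1 was also called without IT_HLC replicate 1, and AMY3 without SW_LLC replicate 1 or 2. AMY3 was called as well with DESeq2 (0.84, adjusted p = 0.034), with its size factors in edgeR (adjusted p = 0.0436) and with the letter-coded libraries alone (adjusted p = 0.039). Comparing HLC with LLW groups of the same set, IT_HLC with SW_LLW called all 10 members higher and SW_HLC with IT_LLW called 9, all but BAM1 (0.22, adjusted p = 0.641). Over all genes, 3638 and 4259 were called higher in these 2 comparisons. In those comparisons ISA3 rose by 5.08 and 4.50, SEX4 by 2.65 and 3.80, GWD1 by 3.16 and 2.37 and BAM3 by 2.11 and 2.11. These comparisons were added after the data were seen.

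**Figure D2:**
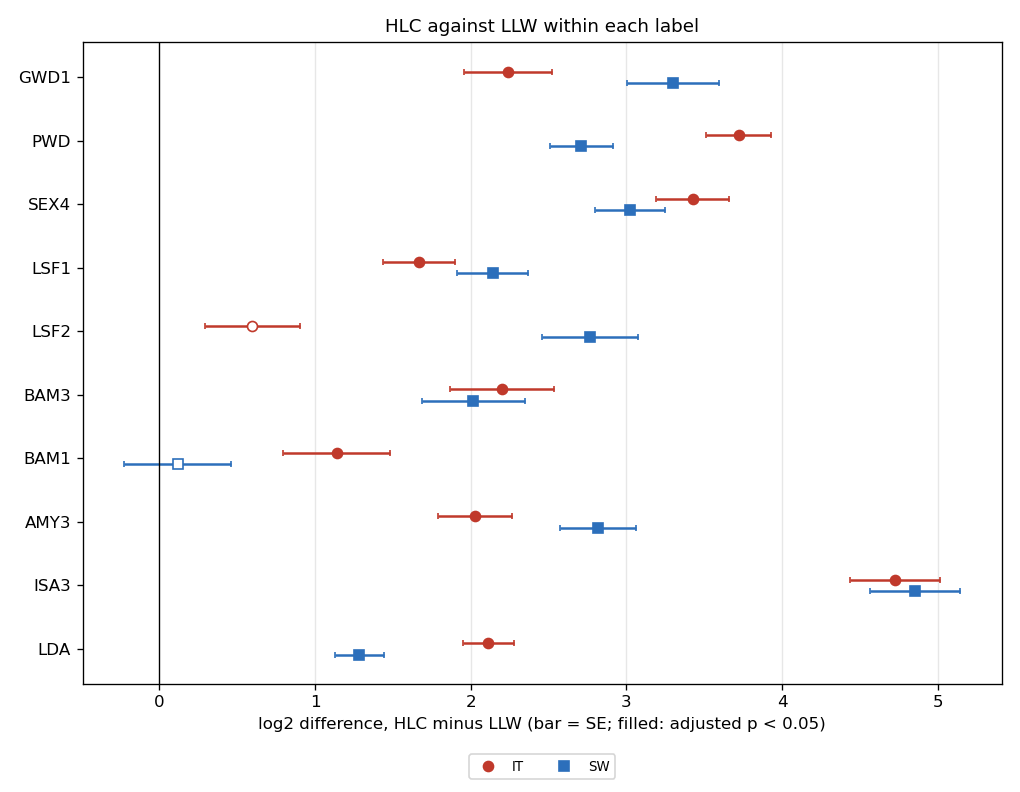
Log2 difference of HLC minus LLW (x axis) for each gene within the IT label (red circles) and the SW label (blue squares); whiskers are SE and filled symbols have an adjusted p below 0.05. LSF2 in IT at 0.60 and BAM1 in SW at 0.12 are the open symbols, and ISA3 is farthest right under both labels at 4.72 and 4.85.

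Taking light and temperature apart, 9 members were higher in high than in low light in the mean over temperatures and labels, from LDA at 0.60 ± 0.08 to ISA3 at 2.43 ± 0.13, against 22.6% of all genes called higher. BAM1 was not called (0.14 ± 0.17, adjusted p = 0.531). In cool against warm leaves 9 were also higher, from BAM1 at 0.49 ± 0.17 (adjusted p = 0.0207) to ISA3 at 2.36 ± 0.13, against 30.4% of all genes. LSF2 was not called there (0.33 ± 0.15, adjusted p = 0.0691), though it was without IT_LLW replicate 2, IT_HLW replicate 3 or IT_HLC replicate 1 or 2 (0.38 to 0.41). Low light holds 3 groups of the first transcript set and high light 1, and cool holds 3 and warm 1, so these means are not balanced over the sets. For BAM3, called higher in both means (0.94 ± 0.16 and 1.17 ± 0.16), each mean averages steps of opposite sign, which are given next.

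In steps of a single factor, the mean of labels for BAM3 was lower with either factor alone and higher in the steps to HLC. From LLW to HLW it fell by 1.32 ± 0.23 on the log2 scale (adjusted p = 0.000178), and from LLW to LLC by 1.08 ± 0.23 (adjusted p = 0.000705). From LLC to HLC it rose by 3.19 ± 0.24 (adjusted p = 4.1e-09), and from HLW to HLC by 3.43 ± 0.25 (adjusted p = 1.5e-09). BAM3 was the only member called lower in either of the first 2 steps; of all genes 20.4% and 21.8% were called lower there. Between groups of the same transcript set the 4 values were -1.27, -1.13, 3.24 and 3.38, with adjusted p from 1.23e-08 to 0.00387. The step to HLC from LLC also lowered leaf temperature in the light from 16 to 14 °C. The SW means were 172 CPM in LLW, 44.1 in LLC and 40.9 in HLW, with LLW apart from both, and the IT means were 161, 139 and 109 CPM, with ranges that overlapped. These steps were not tested within each label.

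In the mean of labels, ISA3 and AMY3 were higher in each of the 4 steps, with estimates close to each other within each gene. For ISA3 the step was 2.36 ± 0.20 for light in warm leaves, 2.29 ± 0.20 for cool in low light, 2.49 ± 0.18 for light in cool leaves and 2.43 ± 0.18 for cool in high light. For AMY3 the same steps were 1.25 ± 0.17, 1.21 ± 0.17, 1.21 ± 0.16 and 1.17 ± 0.16, and all 8 values were called (adjusted p from 1.33e-09 to 1.02e-05). The labels were unlike for ISA3 in HLW, with means of 6.28 CPM in IT and 16.6 CPM in SW and ranges that did not overlap. Its IT and SW means were 2.22 and 1.74 CPM in LLW and 59.1 and 50.5 CPM in HLC. For AMY3 the labels were unlike in LLC, with means of 48.9 CPM in IT and 26.5 CPM in SW and ranges that did not overlap. The AMY3 means in LLW and HLW were 17.9 and 35.3 CPM in IT and 13.6 and 39.2 CPM in SW. These steps were not tested within each label. Between groups of the same transcript set AMY3 gave 1.06 and 1.01 for light and 1.40 and 1.37 for cool. LDA was higher by 1.16 ± 0.11 and 1.02 ± 0.11 in the cool steps and by 0.67 ± 0.11 and 0.53 ± 0.11 in the light steps, all called. Between groups of the same transcript set the order of the steps from LLW turned round, with 1.07 for light in warm leaves (adjusted p = 2.73e-05) and 0.76 for cool in low light (adjusted p = 0.000476). LSF2 was higher with light in the mean of labels (1.43 ± 0.22 and 1.27 ± 0.21), and its cool steps were not called (0.42 ± 0.23 and 0.25 ± 0.20, adjusted p = 0.148 and 0.306). Between groups of the same set LSF2 differed from this: light in cool leaves gave 0.57 (adjusted p = 0.0851), or 0.18 (adjusted p = 0.627) without IT_HLC replicate 3, and cool gave 0.81 in low light (adjusted p = 0.0456) and 0.95 in high light (adjusted p = 0.00307). The LSF2 means in LLW and HLW were 2.63 and 3.04 CPM in IT, with ranges that overlapped. In SW they were 1.51 and 9.39 CPM, with ranges apart.

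LSF1 was higher in 3 steps, but cool in low light gave 0.17 ± 0.17 (adjusted p = 0.423), and between groups of the same set light in warm leaves was not called (0.56, adjusted p = 0.0581). GWD1, PWD and SEX4 were higher in all 4, by 0.76 ± 0.19 to 2.28 ± 0.14. For GWD1, light in warm leaves gave 1.31 and cool in low light 0.76, but 0.84 (adjusted p = 0.0164) and 1.22 (adjusted p = 0.00131) between groups of the same set. The GWD1 means in LLW and HLW were 59.4 and 69.5 CPM in IT, with ranges that overlapped. In SW they were 31.3 and 163 CPM, with ranges apart. BAM1 was called in 1 step, cool in high light (0.60 ± 0.24, adjusted p = 0.0441), and without IT_HLC replicate 2 that was 0.20 (adjusted p = 0.31); between groups of the same set it was 0.14 (adjusted p = 0.737). The call was lost without any of 13 libraries in all, the others being the 3 of IT_LLW, the 3 of SW_HLC, replicate 1 of SW_LLW and of SW_LLC, replicates 1 and 3 of IT_HLW, and replicates 2 and 3 of SW_HLW. In all, 8 members were called higher for light in warm leaves (17.3% of all genes), 6 for cool in low light (23.6%), 9 for light in cool leaves (24.6%) and 9 for cool in high light (28.4%).

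**Figure D3:**
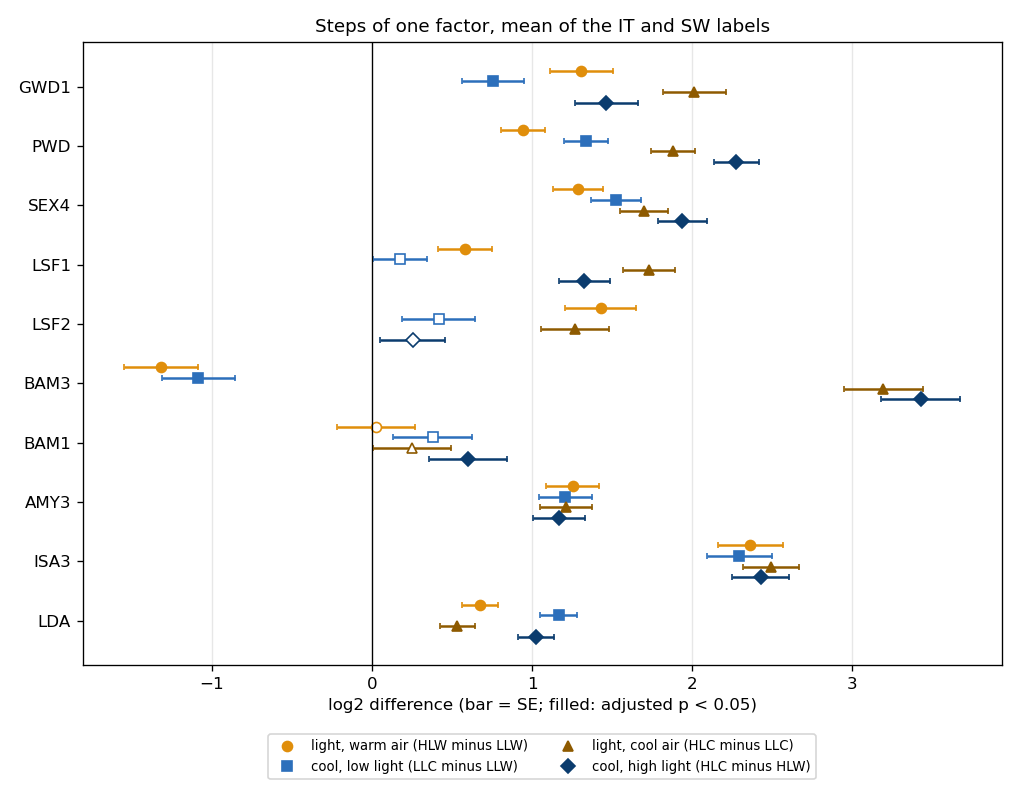
Log2 difference (x axis) for 4 steps of a single factor, mean of the labels: light in warm leaves (circles), cool in low light (squares), light in cool leaves (triangles) and cool in high light (diamonds); whiskers are SE and filled symbols have an adjusted p below 0.05. BAM3 lies at -1.32 and -1.08 for the steps from LLW and at 3.19 and 3.43 for the steps to HLC, while the 4 ISA3 values lie between 2.29 and 2.49.

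The difference between the light step in cool and in warm leaves tested this for each gene; this contrast was added once the data had been seen. It was called for 4 members, all higher, against 36.9% of all genes called, a like share, and 19% called higher. BAM3 gave 4.51 ± 0.33 (adjusted p = 1.09e-08). LSF1 gave 1.15 ± 0.23 (adjusted p = 0.000698) and PWD 0.94 ± 0.19 (adjusted p = 0.000752). GWD1 gave 0.71 ± 0.27 (adjusted p = 0.0474), a call lost on leaving out any of 20 libraries and kept only without SW_LLC replicate 2, IT_HLW replicate 1, SW_HLW replicate 2 or IT_HLC replicate 1. It was also lost with DESeq2's size factors (adjusted p = 0.0566), with no filter (adjusted p = 0.0589) and with 1 subtracted from every count (adjusted p = 0.0527). ISA3 (0.13 ± 0.27, adjusted p = 0.741), AMY3 (-0.04 ± 0.23, adjusted p = 0.914) and LDA (-0.14 ± 0.16, adjusted p = 0.518) were not called, nor were SEX4, LSF2 and BAM1. This contrast sets the letter-coded against the number-coded libraries, and the series and the interaction cannot be told apart.

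HLW against LLC compares the 2 intermediate regimes within the number-coded libraries. Both LLC groups carry the first transcript set and both HLW groups the second, so regime and set cannot be told apart in any value of this comparison. GWD1 (0.55 ± 0.19, adjusted p = 0.0289) and LSF2 (1.01 ± 0.22, adjusted p = 0.000965) were higher in HLW, and PWD (-0.40 ± 0.13, adjusted p = 0.0235) and LDA (-0.49 ± 0.11, adjusted p = 0.00152) lower, where 17.5% of all genes were called higher and 21.9% lower, shares close to 2 of 10. The PWD call was lost without SW_LLC replicate 2 (-0.23, adjusted p = 0.0868) or without IT_HLW replicate 2 or 3, and in a fit of the number-coded libraries alone (-0.39, adjusted p = 0.0648). LSF1 was called without that SW_LLC library (0.58, adjusted p = 0.0059) or without IT_LLC replicate 3, IT_HLW replicate 1 or SW_HLW replicate 2. BAM3 was called lower without IT_HLW replicate 1 (-0.52, adjusted p = 0.0409). SW_LLC replicate 2 was above both other libraries of its group for GWD1 (113 against 47.8 and 57.3 CPM), PWD (42.8 against 21.7 and 25.9 CPM) and AMY3 (40.96 against 17.6 and 21.0 CPM). GWD1 lost its call without IT_LLC replicate 1 or 2, SW_LLC replicate 1 or 3, IT_HLW replicate 1 or SW_HLW replicate 2, or with no filter (adjusted p = 0.0519). Across all 8 groups every member differed (adjusted p from 7.08e-12 for ISA3 to 0.00479 for BAM1), as did 87.9% of all genes.

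Cell type markers were counted for HLC against LLW, where 28.5% of all genes were called higher and 27.3% lower. From LLW to HLC, 4 of 4 xylem and 4 of 5 phloem genes were called lower, 1 of 4 mesophyll genes was lower, and of 3 guard cell genes tested 1 was higher and 1 lower. The counts differed between the labels. Within IT, 5 of 5 phloem, 4 of 4 xylem and 2 of 4 mesophyll genes were called lower. Within SW, 2 phloem genes were higher and 1 lower, 2 of 4 xylem genes were lower and no mesophyll gene was called. Of all genes, 26% were called lower within IT and 25.5% within SW, and 24.8% higher within SW. Xylem counts were low, at 1 to 21 for IRX1, 1 to 35 for XCP1, 4 to 33 for IRX3 and 3 to 85 for XCP2. The summed xylem genes were at 6.29 to 7.35 CPM in IT_LLW and 2.22 to 7.26 CPM in SW_LLW, against 0.742 to 1.44 and 1.35 to 2.44 CPM in HLC. The summed phloem genes were at 310 to 429 CPM in IT_LLW and 115 to 159 CPM in IT_HLC, and at 218 to 251 and 243 to 322 CPM in the SW groups. Mesophyll genes summed to 13688 to 16623 CPM in IT_LLW, 3548 to 10454 CPM in IT_HLC, 10301 to 11210 CPM in SW_LLW and 9204 to 11529 CPM in SW_HLC. Of 4 root genes, 3 were at the lowest value throughout and SCR, which leaf vascular tissue also expresses, was lower in HLC. Their part in the changes of the 10 members was not tested.

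Genes of the steps after the granule were also higher in HLC than in LLW. All 5 genes of maltose and glucan metabolism were called higher in the mean of labels, with a median of 1.87, as were 5 within SW and 3 within IT. Of all genes, 28.5% were called higher in the mean of labels, 24.8% within SW and 28.6% within IT. PHS2, the cytosolic glucan phosphorylase, rose by 4.43 ± 0.23 (adjusted p = 9.27e-12), from 7.62 and 9.69 CPM in LLW to 177 and 193 CPM in HLC (group means of IT and SW). DPE2, the cytosolic enzyme that takes up maltose-derived glucose units, rose by 1.87 ± 0.19, and DPE1, its plastid counterpart for maltotriose, by 1.88 ± 0.26. The highest group mean of DPE1 was in SW_HLW, at 14.4 CPM, against 11.1 CPM in IT_HLC and 9.83 CPM in SW_HLC. MEX1, the maltose exporter, rose by 0.65 ± 0.11 (adjusted p = 6.23e-05), the smallest rise of the 5. Its 8 group means ran from 5.42 to 14.5 CPM, with SW_HLW at 13.3 CPM above IT_HLC at 9.56 CPM.

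Other amylases, dikinases and granule proteins went both ways, with 6 of 12 called higher and 4 lower and a median of 0.74. Of all genes, 28.5% were called higher and 27.3% lower, and 4 of 12 is near the latter share. LESV, a granule protein, rose by 3.17 ± 0.20 and BAM2, a plastid beta-amylase, by 2.08 ± 0.17. ESV1, a relative of LESV that protects granules from premature breakdown, fell by 3.17 ± 0.26 on the log2 scale, from 35.3 and 23.3 to 3.22 and 3.18 CPM. BAM9, a plastid beta-amylase-like protein without catalytic activity, fell by 3.52 ± 0.25, from 298 and 113 to 11.9 and 21.6 CPM. The adjusted p of these 4 ran from 8.71e-11 to 4.1e-09.

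Starch synthesis genes were higher in 15 of 19 and lower in 1, with a median of 0.80, where 28.5% of all genes were called higher and 27.3% lower. Within IT 12 were higher and within SW 14, against 28.6% and 24.8% of all genes. The branching enzyme gene SBE2.1 rose by 3.95 ± 0.19, the plastid phosphoglucomutase PGM1 by 2.40 ± 0.18, SS4, which starts granules, by 2.11 ± 0.13, and APS1, the small subunit of ADP-glucose pyrophosphorylase, by 1.86 ± 0.16. Of 12 clock genes, 8 were higher and 3 lower, against 28.5% and 27.3% of all genes. TOC1, an evening clock gene, rose by 4.78 ± 0.17, from 1.89 and 2.84 to 69.4 and 58.6 CPM, FKF1 had group means of 0.218 and 0.309 CPM in LLW and 31.4 and 27.2 CPM in HLC, and ELF4 was near the table's lowest value in every group but HLC, at 1.17 and 1.36 CPM. GI, whose protein works with FKF1, was at 0.360 and 0.288 CPM in LLW, 16.8 and 11.7 CPM in HLC and 20.8 and 14.7 CPM in LLC.

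**Figure D4:**
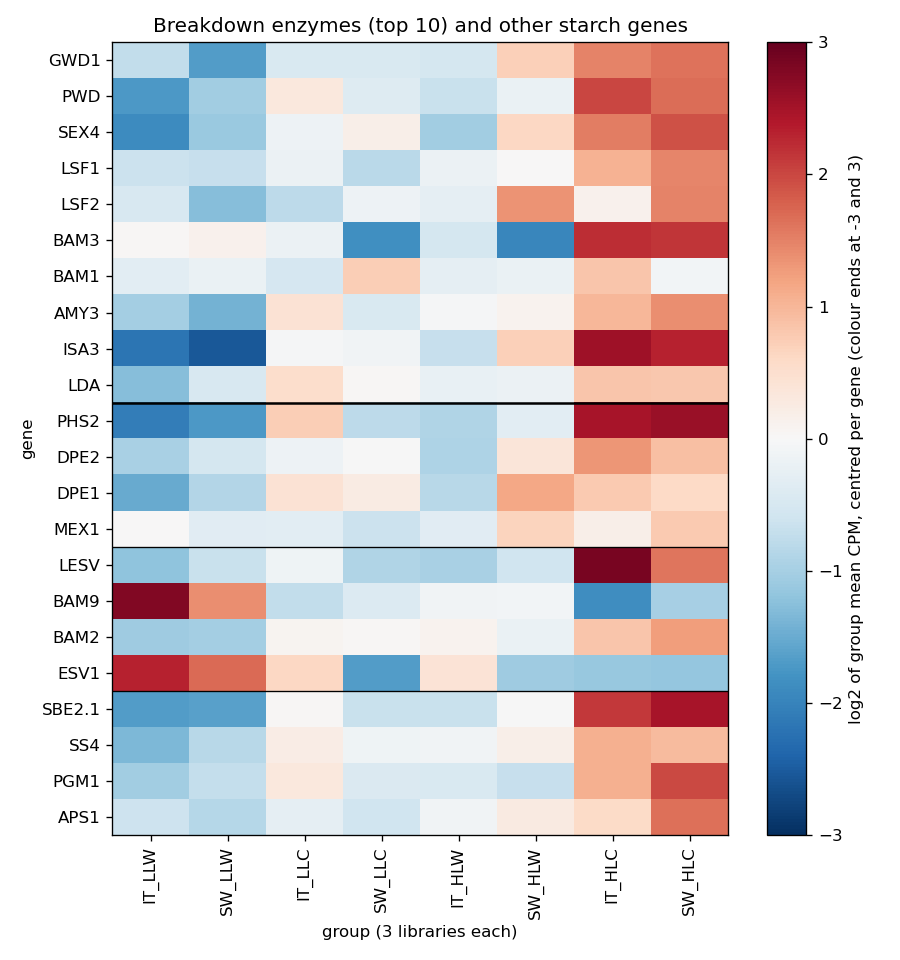
Log2 of group mean CPM centred on each gene's mean over the 8 groups (colour, ends at -3 and 3) for the 10 breakdown genes above the thick line and, below it, the named genes of maltose and glucan metabolism, of other amylases and granule proteins, and of starch synthesis. The 2 HLC columns are red for most genes, whereas BAM9 and ESV1 are red in the LLW columns.

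The members' own profiles were compared as the root-mean-square difference (RMS, log2) over the 8 centred group means. From the mean profile of the 10, LSF1 lay at 0.29, AMY3 at 0.31 and GWD1 at 0.36, while ISA3 lay at 0.86 and BAM3 at 1.11. The RMS also grows with the size of a gene's changes. Correlations over the 8 group means ran for ISA3 from 0.44 with BAM1 to 0.95 with SEX4. For BAM3 they ran from 0.12 with BAM1 to 0.78 with LSF1. The closest pair was LSF1 with AMY3 (0.39), followed by PWD with SEX4 (0.46) and GWD1 with AMY3 (0.47). Among 3744 other genes with a symbol and a mean log2 CPM of at least 3, the nearest to the mean profile were G6PD5 (0.20), a cytosolic glucose-6-phosphate dehydrogenase, CLPB3 (0.23), a plastid chaperone, RbcX1 (0.28), a Rubisco assembly chaperone, scpl35 (0.29), PFK7 (0.29), a phosphofructokinase, ADS2 (0.30), a fatty acid desaturase, PP2-A12 (0.30) and SS4 (0.30). Of the 3744 genes, 1225 lay closer to the mean profile than ISA3 and 2817 closer than BAM3. The 8 points share libraries and regimes, and the measure is a description.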

How the data were processed

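RNA was sequenced from rRNA-depleted leaf samples, 3 libraries in each of 8 groups. The deposited table holds a whole-number count per gene and library; per the submitters' processing notes, HISAT, StringTie and DESeq2 were used with build TAIR10, and the versions, strand use and counting options were not given in the sources used here. The lowest count the authors deposited is 1, held by 43.9% of cells, so 0 was replaced or an offset added. Both ecotypes were counted on a single reference, and sequence differences from it can lower counts.

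Counts were fitted with edgeR 4.0.16 in R 4.3.3 (TMM, filterByExpr with minimum count 10 and total 15, robust quasi-likelihood test) in a single fit of 8 groups and 24 libraries. This kept 17709 genes, over which p-values were Benjamini-Hochberg adjusted within each comparison; calls needed an adjusted p under 0.05. The median biological coefficient of variation was 0.165, and the lowest count of a member was 20. SEs are the log2 difference over the root of F. CPM use TMM-scaled totals. On simulated data for HLC against LLW (17224 genes, 100 changed by each size), 96% of changes of size 1 and 100% of size 2 (log2) were recovered. There 3.92% of calls were unchanged genes. In the measured data 55.8% of genes were called, so these rates describe the simulation and not the fit of the measured libraries.

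The members, gene lists and comparisons were chosen with earlier results of these data known. Named were all members in every comparison, up to 4 genes per list with the smallest adjusted p in HLC against LLW, and the 8 genes nearest the members' mean profile. Alternatives were DESeq2 1.42.0, its size factors in edgeR, no filter, 1 subtracted, organelle genes left out, a replicate block, a single code series, each library left out and, added after the data were seen, groups of the same transcript set.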

Additional observations from a re-analysis of the deposited data

Results flagged for a closer look

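A difference of effects between groups was called for 8 member results by a test of the difference itself (edgeR quasi-likelihood test, adjusted p below 0.05), 4 of 10 for each of 2 contrasts in which 37.1% and 36.9% of all genes were called, shares near that background. Between the SW and IT labels, the HLC against LLW difference was larger under SW for GWD1 by 1.06 and for LSF2 by 2.17, and smaller for PWD (-1.01) and LDA (-0.83). Within a label these regimes carry different transcript sets, so the label and the set cannot be told apart. Between cool and warm leaves, the effect of high light was larger in cool leaves for BAM3 by 4.51, LSF1 by 1.15, PWD by 0.94 and GWD1 by 0.71. The GWD1 call in this contrast was lost without any of 20 libraries and under 3 processing alternatives. This contrast coincides with the 2 series of library codes, and the code series and the regimes cannot be told apart.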

How the results depend on the processing

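Of 4040 member results under alternatives, 3911 kept their direction and side of the threshold, 73 lost a call, 28 gained one and 28 changed sign. All sign changes came from leaving out a library where no call had been made. Leaving out each library in turn, the ranges were for BAM3 and ISA3 in the label difference -0.446 to 0.0261 and -0.0715 to 0.536; for AMY3 and ISA3 in HLW against LLC -0.0658 to 0.277 and -0.0312 to 0.153; for BAM1 in light, in the mean and in warm and cool leaves, -0.0649 to 0.212, -0.0395 to 0.0783 and -0.156 to 0.397; for GWD1, LSF1 and PWD in SW against IT -0.0072 to 0.193, -0.105 to 0.0366 and -0.0548 to 0.0794; and for AMY3, BAM1 and ISA3 in light by temperature -0.151 to 0.193, -0.183 to 0.370 and -0.0659 to 0.238. The members called in SW against IT numbered 3 to 5, with 5 (BAM1 and ISA3 added) without IT_HLC replicate 2, and AMY3 added without SW_LLC replicate 2. In the fit of all 24 libraries 24.2% of all genes were called in SW against IT. With groups of the same transcript set, which use fewer libraries per comparison, all genes called numbered 4202 in place of 6671 for light in warm leaves, 4804 (4957 without IT_HLC replicate 3) in place of 8032 for cool in low light, and 5907 without that library in place of 9055 for light in cool leaves; LSF1 lost its call for light in warm leaves (0.56, adjusted p = 0.0581). BAM1 was called for cool in low light without IT_HLC replicate 2 (0.38, adjusted p = 0.0394). Replicate numbers did not pair the libraries: deviations of 84 same-numbered pairs correlated at -0.29 to 0.19, and 6 of 24 libraries lay nearest to their own number. With the number as a replicate block, 10 members and 9768 genes were called in HLC against LLW; LSF1 in HLW against LLC was called (0.41, adjusted p = 0.0393) and BAM1 for cool in high light was not (0.57, adjusted p = 0.0611). Without a filter, genes at 1 in every library were still dropped because the fit failed with them. Depth limits LSF2 and ISA3 most, whose lowest counts were 20 and 21.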
